A study of Homo sapiens with 4 samples.

Results

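Oxidative phosphorylation makes ATP in the inner mitochondrial membrane. Complexes I to IV pass electrons to oxygen and all but complex II pump protons, and complex V, the ATP synthase, uses the proton gradient. The subunits come from both genomes: nuclear mRNAs are translated in the cytoplasm and the proteins imported, whereas the mitochondrial genome is transcribed as long precursors that are cut into mRNAs, tRNAs and rRNAs inside the organelle. Complex II is encoded in the nucleus alone.

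RNAs of this system were measured in YTHDC1 RNA immunoprecipitation sequencing (RIP-seq) of MDA-MB-231, a triple-negative breast cancer cell line. The 4 libraries were 2 immunoprecipitates (IP-YTHDC1) and 2 inputs. All came from cells transduced with 3x flag-YTHDC1 lentivirus at an MOI of 4 and kept under 2 ug/ml puromycin for 4 days, so that every library, input included, carried the overexpressed reader of N6-methyladenosine. The cells were UV-crosslinked, and the RNA came from sonicated nuclear pellets, with anti-flag antibody for the IP and a saved portion of the lysate for the input.

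The members were all transcripts that matched a gene-name rule for complexes I to V or mitochondrial rRNA, without pseudogenes. The rule goes by name alone, so it leaves out some subunits (CYC1, NDUFAB1) and takes in some genes that are not subunits. The members came to 402 transcripts of 100 genes, out of 75165 transcripts of 20298 genes. Mitochondrial DNA gave 15 of these genes, 13 protein-coding and 2 for rRNA, and the nucleus gave 85 genes with 387 transcripts. Complex I had 36 nuclear and 7 mitochondrial genes, complex III 9 and 1, complex IV 12 and 3, and complex V 19 and 2, while complex II had 4 nuclear genes. A further 2 nuclear genes were readthrough genes, which join a subunit to its neighbour, and 3 were long non-coding RNAs named after a subunit.

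The value used for each transcript was the mean normalized count, the authors' mean over all 4 libraries. It pools IP and input, so it gives neither a spread between replicates nor the depth of a library, and no comparison of IP with input was made here. No test stands behind any statement below, and each is a description of this mean. Over a whole gene the values were summed into a read total, which grows with transcript length as well as abundance.

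The cell line was checked against its markers. VIM (80785), AXL (63189), MSN (28459), EGFR (22483), CD44 (14306) and CAV1 (7624) had large read totals, and SPARC had 11.4. Of genes listed for other breast cell types, ESR1 and PGR had no row among the transcripts analysed, CDH1 had 10.0 and EPCAM 78.3. On the same list ERBB2 had 4303, GATA3 584, KRT8 31132 and KRT18 27123. The paper stained lung metastases of MDA-MB-231 cells for the human protein of KRT18, so KRT18 does not set other cell types apart from this line. The paper reports no such stain for KRT8, ERBB2 or GATA3, and the source of their totals was not tested. YTHDC1 itself had a read total of 55488 over 6 transcripts. All libraries came from cells that overexpressed it, so this total is not read as the line's own level.

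Promoter windows of 3 genes are shown first because the nuclear subunits of oxidative phosphorylation are transcribed separately, on many chromosomes, and NRF1, ETS-family proteins and YY1 are known to act on many of them. Each window is the RefSeq sequence (GRCh38.p14) from 250 bases before to 50 bases after the annotated start, written along the gene's strand. Capitals mark searched words: GCGCATGC or GCATGCGC for NRF1, CCGGAAGT or ACTTCCGG for ETS factors, AAGATGGC or GCCATCTT for YY1, and TGACGTCA for the cyclic AMP response element (CRE). SDHB and SDHD encode the iron-sulfur and a membrane subunit of complex II, and NDUFA6 a complex I subunit.
SDHB, chr1:17053983-17054282, minus strand: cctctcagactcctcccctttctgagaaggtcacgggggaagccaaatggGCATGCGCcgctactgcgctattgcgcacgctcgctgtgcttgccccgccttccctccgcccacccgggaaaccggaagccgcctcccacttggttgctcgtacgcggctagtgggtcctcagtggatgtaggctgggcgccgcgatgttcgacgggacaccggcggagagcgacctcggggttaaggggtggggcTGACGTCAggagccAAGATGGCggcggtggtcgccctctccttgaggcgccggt
SDHD, chr11:112086623-112086922, plus strand: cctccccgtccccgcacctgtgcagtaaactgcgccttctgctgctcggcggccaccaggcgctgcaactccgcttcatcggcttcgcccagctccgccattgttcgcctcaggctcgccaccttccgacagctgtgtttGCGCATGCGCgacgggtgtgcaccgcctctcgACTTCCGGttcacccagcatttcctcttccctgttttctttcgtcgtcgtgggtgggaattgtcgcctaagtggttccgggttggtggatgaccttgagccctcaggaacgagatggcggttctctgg
NDUFA6, chr22:42090723-42091022, minus strand: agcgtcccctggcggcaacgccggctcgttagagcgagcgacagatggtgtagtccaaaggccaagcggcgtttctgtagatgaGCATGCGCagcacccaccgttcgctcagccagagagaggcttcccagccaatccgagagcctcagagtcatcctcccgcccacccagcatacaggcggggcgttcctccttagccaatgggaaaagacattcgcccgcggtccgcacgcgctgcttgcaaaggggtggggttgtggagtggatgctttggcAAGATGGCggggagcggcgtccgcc
In SDHB the NRF1 word began at position -200 from the start, the CRE word at -4 and the YY1 word at 11. In SDHD the 2 orientations of the NRF1 word overlapped, at -110 and -108, and the ETS word began at -78. The NDUFA6 window held an NRF1 word at -166 and a YY1 word at 26. It shared 260 bases (chr22:42090723-42090982) with the window of NDUFA6-DT, a long non-coding RNA transcribed the other way from a start 161 bases away, so both words count for both genes.

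A window was found for 70 of the 85 nuclear members. Of these windows, 3 belonged to long non-coding RNA genes and 1 to a readthrough gene, unlike the protein-coding set used for comparison. Besides those 4 words, a longer NRF1 word with 1 free base (GCGCNTGCGC, which can overlap the first one) and the GC box GGGGCGGGG were searched, 6 words in all, on both strands. The NRF1 word was in 14 of 70 member windows (20.0%), against 5.11% of the 10916 windows of other protein-coding genes in the table and 3.27% of all 27305. The YY1 word was in 12 (17.1%, against 5.08% and 3.03%), the ETS word in 10 (14.3%, against 8.39% and 4.44%) and the CRE word in 5 (7.14%, against 3.10% and 1.98%). The longer NRF1 word was in 16 (22.9%, against 10.9% and 6.28%). The GC box went the other way against protein-coding genes, with 11 member windows (15.7%) beside 27.5% of those windows and 16.0% of all.

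**Figure D1:**
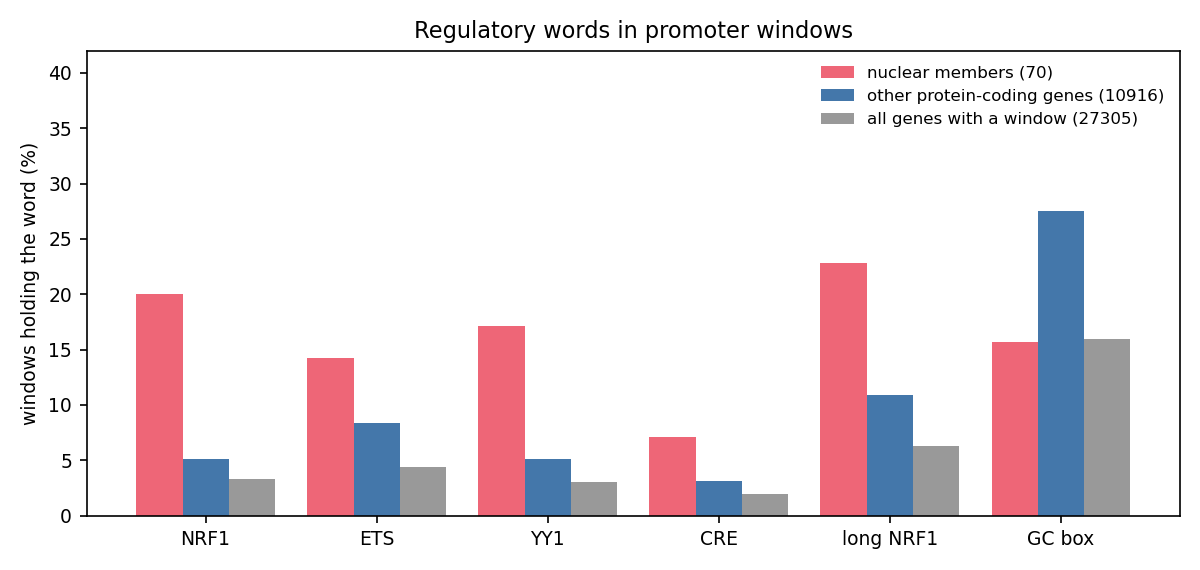
Share of promoter windows of 300 bases (y axis, percent) that hold each of the 6 searched words (x axis), for nuclear members, other protein-coding genes and all genes with a window. The bars of the members are the highest of each trio for 5 words and the GC box is held by 15.7% of member windows and 27.5% of other protein-coding windows.

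At least 1 of the 6 words was in 44 of 70 member windows (62.9%), against 47.1% of other protein-coding windows, and 26 member windows held none. By complex, the first NRF1 word was in 5 of 31 complex I windows, 2 of 3 in complex II, 0 of 7 in complex III, 2 of 11 in complex IV and 4 of 14 in complex V. The longer NRF1 word gave another order, with 6 of 31 in complex I, 2 of 3 in complex II, 4 of 7 in complex III, 0 of 11 in complex IV and 4 of 14 in complex V. The YY1 word was in 6 complex I windows and in 0 of complex IV. A word is a description of these letters and not a bound site.

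Counts were split almost evenly between the genomes. The mitochondrial genes, 15 of 100, had a summed mean normalized count of 97182, or 49.4% of all member counts, and the nuclear genes had 99668, or 50.6%. Together the members made 0.590% of all counts in the table. The source of the mitochondrial RNA in a nuclear pellet (mitochondria left in it, or other) was not tested.

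The share that came from mitochondrial DNA differed widely between complexes. It was 76.6% in complex IV, 51.1% in complex I, 35.7% in complex III and 13.4% in complex V, beside 0 in complex II. Complex I took 39.4% of member counts, complex IV 31.7%, complex V 16.3%, complex III 7.52% and complex II 3.91%. These are shares of reads and reflect transcript length and gene number as well as abundance. Complex III is counted here without its nuclear subunit CYC1 (read total 4567), which the gene-name rule leaves out.

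Mitochondrial genes have no introns, so their values could be set per kilobase (RefSeq gene lengths, coordinates on the mitochondrial genome of the same assembly). MT-CO1 (ENSG00000198804.2, chrMT:5904-7445), the catalytic subunit of complex IV, stood highest with a mean normalized count of 33573, or 21772 per kilobase. It alone held 34.6% of mitochondrial mRNA counts, and the 4 mRNAs with most counts held 71.6%. MT-ND1 (chrMT:3307-4262), a membrane subunit of complex I, followed with 13325 per kilobase, 1.63-fold below MT-CO1.

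The other core subunits of complex IV were also high per kilobase, MT-CO3 at 10810 and MT-CO2 at 8447. Complex I subunits ranged most, from MT-ND1 down to MT-ND3 at 465 per kilobase, with MT-ND5 at 8102, MT-ND2 at 4501, MT-ND4 at 4161, MT-ND6 at 2084 and MT-ND4L at 1729. The median per kilobase was 10810 over the complex IV genes and 4161 over those of complex I. Of the proton channel and accessory subunits of complex V, MT-ATP6 had 5511 and MT-ATP8 2703 per kilobase, and MT-CYB, the cytochrome b of complex III, had 4626. Without replicate values, neighbours in this order could not be told apart.

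**Figure D2:**
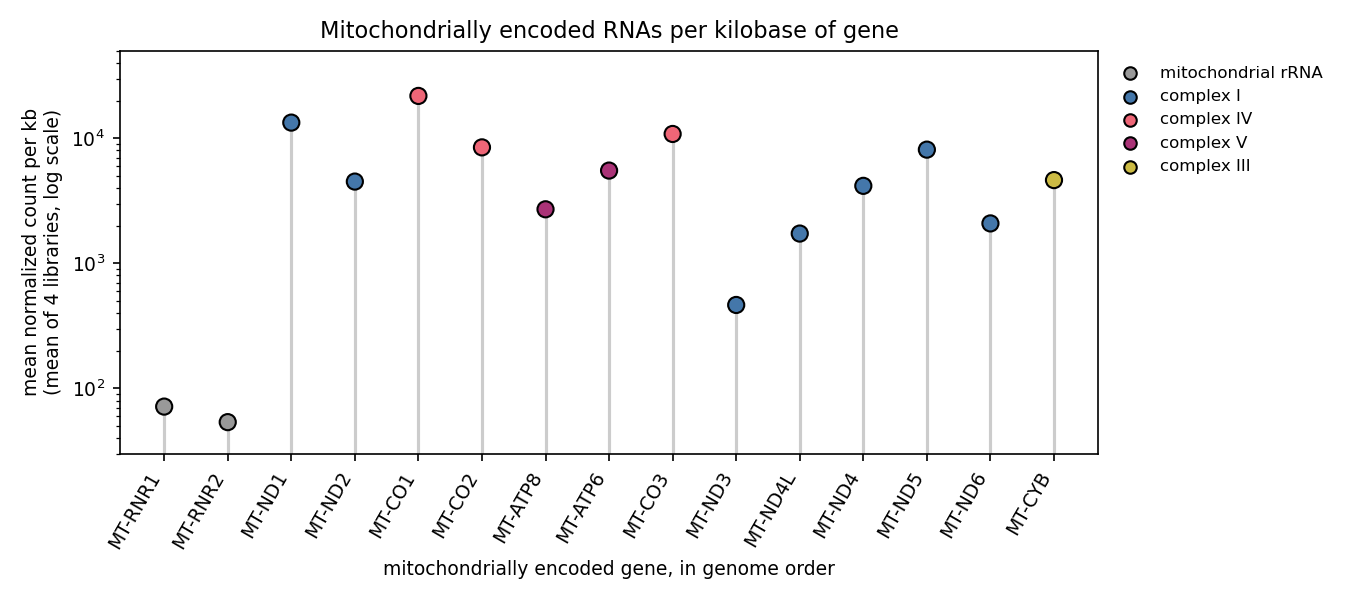
Mean normalized count per kilobase of gene (log y axis, authors' mean of 4 libraries) for the 15 mitochondrially encoded genes in genome order, coloured by complex. MT-CO1 is at 21772, MT-ND3 at 465 and both rRNAs are under 72 per kilobase.

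MT-CO1 was 46.9-fold above MT-ND3, although both are cut from precursors of the same strand. Gene length moved with this order. The 4 mRNA genes under 600 bases (MT-ATP8, MT-ND3, MT-ND4L and MT-ND6) reached at most 2703 per kilobase, and the 9 longer genes had at least 4161, with a 5.23-fold range among them. Of the short genes, MT-ATP8 shares 46 bases with MT-ATP6 and MT-ND4L shares 7 with MT-ND4, where reads cannot be assigned to 1 gene. MT-ND3, the lowest, and MT-ND6 share no bases with a neighbour among these genes. MT-ATP6 had 2.04-fold more per kilobase than MT-ATP8, and MT-ND4 2.41-fold more than MT-ND4L. Within these overlapping pairs the values are not read as levels of separate RNAs. MT-ND6 lies alone among the mRNAs on the opposite strand and had 3.89-fold less per kilobase than its neighbour MT-ND5. The part of gene length in these values was not tested.

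The rRNAs were at 71.6 (MT-RNR1) and 53.8 (MT-RNR2) per kilobase, under every mitochondrial mRNA. The libraries had been depleted of rRNA before construction.

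Among nuclear genes, the transcripts listed per gene ranged from 1 to 16, with a median of 4 (quartiles 3 and 6) over the 82 protein-coding members and also 4 (2 and 6) over the 13955 other protein-coding genes. A single transcript was listed for 8 members (9.76%, against 18.3%). The most abundant transcript held a median of 69.2% of a gene's counts, beside 66.7% elsewhere, or 67.3% beside 59.7% over genes with more than 1 transcript. NDUFV1, the flavin-binding subunit of complex I, had most transcripts (16), of which NDUFV1-201 took 69.4% and the decay-typed NDUFV1-209 13.8%. SDHA had 12.

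The counts of nuclear members lay more on transcripts typed "processed transcript" than those of other genes. This annotation class holds transcripts without an open reading frame. It took 11.5% of member counts against 4.01% elsewhere, although it made a like share of transcripts (13.6% against 13.2%) and a like share of genes had one (37.8% against 36.6%). Protein-coding transcripts took 81.5% against 87.5%, retained-intron transcripts 5.17% against 4.17%, and transcripts typed for nonsense-mediated decay 1.82% against 4.24%. These are shares of summed counts, to which abundant transcripts give most. Gene by gene the difference had the other direction, with a median of 4.81% of a gene's counts not typed protein coding in members against 5.46% elsewhere.

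A few transcripts held most of these counts. NDUFV3-203 (1732), ATP5F1B-205 (1640), COX4I1-204 (1550), ATP5PB-204 (971) and ATP5F1B-204 (892) together held 59.1% of all processed-transcript counts of the members, and without NDUFV3 the share was 9.94%. In COX4I1, a nuclear subunit of complex IV, COX4I1-204 held 46.6% of counts, near the 50.7% of the coding COX4I1-201. Reads of overlapping transcripts were divided among them by estimation, so the share of a transcript carries an error that the mean does not show.

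The complexes differed in these shares. In complex V 21.3% of nuclear counts were on processed transcripts and 29.7% on transcripts not typed protein coding, the highest of the complexes. Complex IV had 13.7% and 17.3%, complex I 7.53% and 13.3%, complex III 6.73% and 22.8%, and complex II 0.536% and 4.83%. In complex III retained introns led, with 11.2%, of which UQCRC1-207 alone had a mean normalized count of 760 beside 2887 for the coding UQCRC1-201 of this core subunit. The complex III shares leave out CYC1, which the gene-name rule does not take in and which had 3.61% not typed protein coding.

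**Figure D3:**
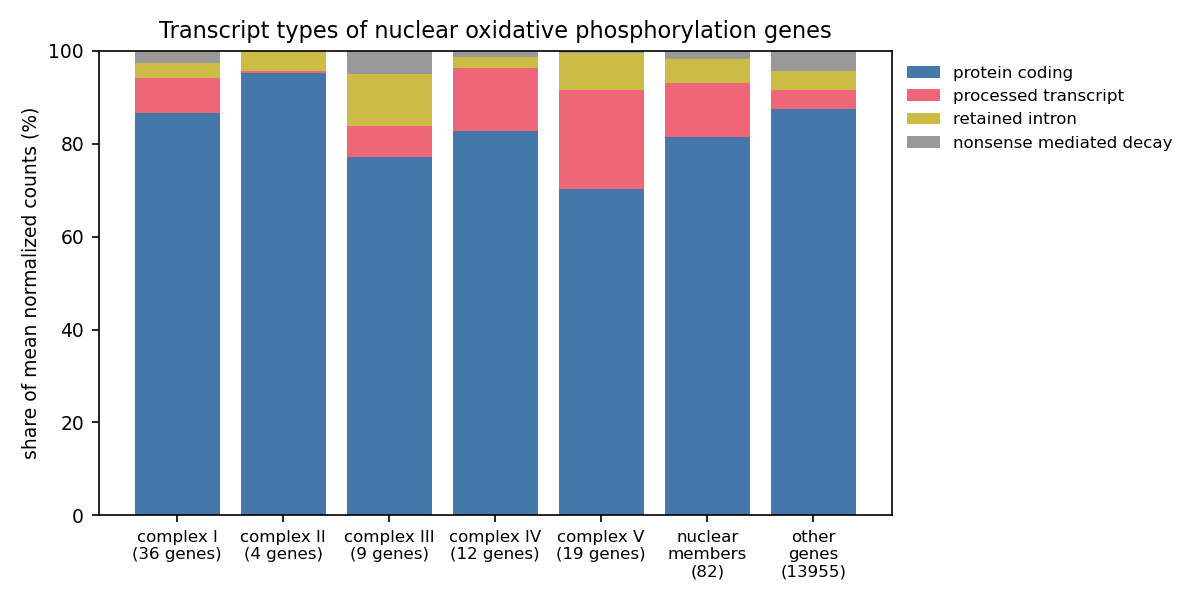
Stacked shares (y axis, percent of mean normalized counts) of 4 annotated transcript types in the nuclear genes of each complex, in all 82 protein-coding members and in 13955 other protein-coding genes. Processed transcripts take 21.3% in complex V, 11.5% over the members and 4.01% over the other genes.

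In 9 of 82 genes (11.0%, beside 12.9% elsewhere) the most abundant transcript was not typed protein coding. The largest such share was NDUFV3-203, which held 73.9% of NDUFV3 (ENSG00000160194.18), a complex I subunit of the peripheral arm, against 17.8% for its leading coding transcript. ATP5PB-204 held 60.5% of ATP5PB, the stator subunit b of complex V, against 11.1%. NDUFA5-205 (59.3%), ATP5MC1-210 (52.4%), ATP5MG-204 (51.5%), COX7A2L-207 (49.4%) and ATP5F1C-204 (42.4%) were processed transcripts too. NDUFA4-204 was a retained-intron transcript with 56.2% of NDUFA4, which works in complex IV despite its name, and COX7A2-204 a decay-typed one with 36.7% of COX7A2.

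**Figure D4:**
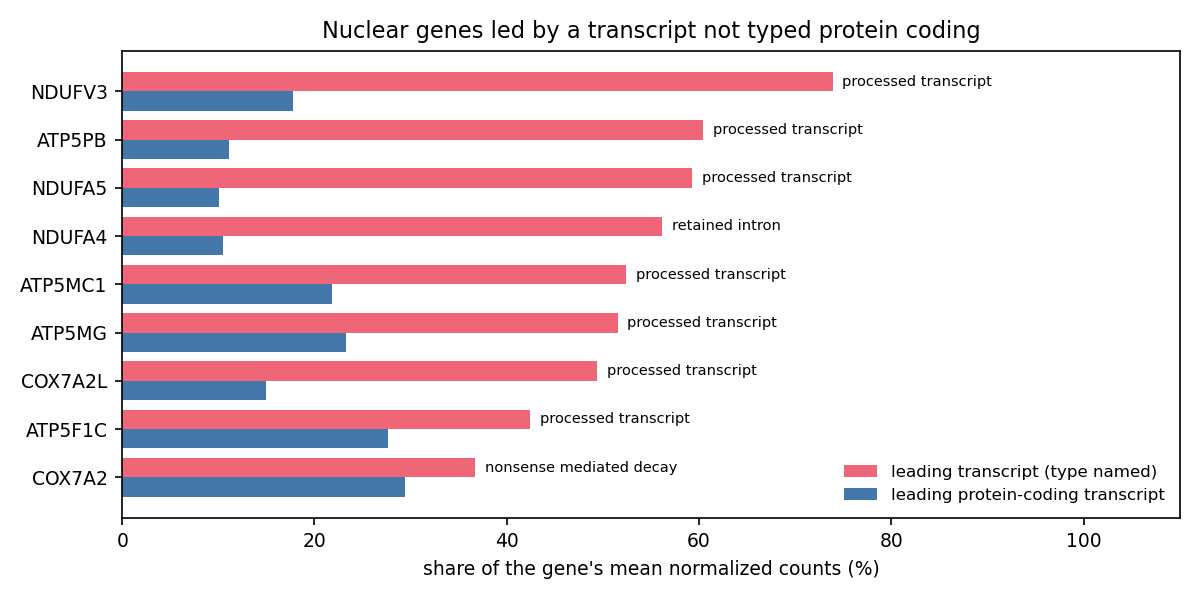
Share of each gene's mean normalized counts (x axis, percent) on its most abundant transcript, with its annotated type, and on its leading protein-coding transcript, for the 9 nuclear genes (y axis) led by a transcript not typed protein coding. NDUFV3 stands at 73.9% against 17.8%, and COX7A2 at 36.7% against 29.4%.

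Complex II shows how genes of 1 complex differed in their transcripts. SDHB had 2 transcripts and SDHB-201 held 96.7% of a read total of 1252. SDHA, the flavoprotein, had a read total of 5920, with 50.1% on SDHA-201, 22.4% on SDHA-220 and 18.0% on SDHA-204, all protein coding. The membrane anchors SDHC and SDHD had read totals of 337 and 189, and in SDHD the leading SDHD-206 held 33.2%, SDHD-201 29.7% and SDHD-209 26.2%.

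Read totals of the other nuclear genes are given by their ends in each complex and are not ordered as levels, since transcript lengths were not at hand. In complex I they ran from 86.3 for NDUFB1 and 115 for NDUFC1 to 3326 for NDUFV1 and 3828 for NDUFS8, an iron-sulfur subunit. In complex III the members ran from 21.1 for UQCRHL and 555 for UQCRC2 to 1337 for UQCR11 and 3851 for UQCRC1. CYC1, a complex III subunit that the gene-name rule leaves out, had 4567. Complex IV ran from 249 for COX6C and 306 for COX7A2L to 3326 for COX4I1 and 3686 for COX6A1. Complex V ran from 7.75 for ATP5MGL and 101 for ATP5MD to 3372 for ATP5F1A and 9671 for ATP5F1B, the subunits alpha and beta of its catalytic head. In all, 79 of 82 members (96.3%) had a read total of at least 100, beside 10950 of 13955 other protein-coding genes (78.5%).

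Several subunits have paralogs that replace each other in tissues. COX4I1 (3326), COX6A1 (3686), COX6B1 (1713), COX7A2 (387), COX7B (469), COX8A (1960) and NDUFA4 (334) had rows, whereas COX4I2, COX6A2, COX6B2, COX7A1, COX7B2, COX8C and NDUFA4L2 had none among the transcripts analysed, which had passed the authors' filter on low reads. The 3 genes for subunit c of the complex V ring had read totals of 328 (ATP5MC1), 851 (ATP5MC2) and 894 (ATP5MC3). ATP5MGL had 7.75 beside 838 for ATP5MG, and UQCRHL 21.1 beside 986 for UQCRH, close copies whose reads could be split between them.

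Copies outside the membership rule touched a few members. UQCRFS1P1, a processed pseudogene of the Rieske iron-sulfur subunit, had 805 beside 776 for UQCRFS1, so that the reads of that subunit are uncertain. The nuclear copies of mitochondrial genes were small beside their originals, from 0.237% (MTND1P23 against MT-ND1) to 3.90% (MTATP6P1 against MT-ATP6), with MTCO1P12 at 644 or 1.92% of MT-CO1. The readthrough genes ATP5MF-PTCD1 and NDUFC2-KCTD14 had read totals of 1300 and 498 and overlap members, and the long non-coding NDUFA6-DT, NDUFB2-AS1 and NDUFV2-AS1 had 219, 56.2 and 15.3.

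Assembly factors, which build the complexes but are not part of them, were listed for 52 of 52 genes, with read totals from 45.4 to 2018. A transcript not typed protein coding led in 14 of these 52 genes, beside 9 of the 82 protein-coding nuclear members and 1802 of 13955 others. Complex I factors had 6 of 17 such genes, complex IV factors 5 of 21, complex III factors 2 of 6, complex V factors 1 of 4 and complex II factors 0 of 4. NDUFAF1, a complex I assembly factor, had 78.4% of its counts on the decay-typed NDUFAF1-203.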

How the data were processed

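RIP-seq libraries (2 IP-YTHDC1, 2 input) of MDA-MB-231 were rRNA-depleted and stranded. Per the labels and methods, the authors used FastQC 0.11.5, mapped reads with STAR 2.7.2b to GENCODE release 33, estimated reads per transcript with RSEM 1.2.31, dropped a transcript unless 50 percent or more of the samples had 5 reads of it, corrected for batch and ran DESeq2. The value used is the signal deposited by the authors as the mean normalized count over all 4 libraries, a read estimate divided by size factors. The remaining columns hold the authors' own comparison of IP with input (fold changes, their errors and p-values) and were not used. The table has 0 columns of per-sample values, so depth, intervals and tests could not be had, although a test had been planned.

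Members were found by gene name and type, summed per gene, and mitochondrial genes divided by RefSeq length, with python 3.11.15, numpy 2.4.6 and pandas 2.3.3, tested on simulated tables. Named genes were all mitochondrial genes and SDH genes, the 2 highest and 2 lowest nuclear read totals per complex, paralogs, genes led by a transcript not typed protein coding and those with most transcripts; UQCRFS1, NDUFAF1, ELAC2, POLRMT, LRPPRC, GRSF1, CYC1, CYCS, the tRNAs and copies named and transcripts named beside a share were picked after their values were seen. Promoter windows were the first RefSeq window of 300 bases per gene; the 6 words and the 3 printed windows were also chosen then. Members and lists were chosen with earlier results of these data known. Alternatives were count minimums of 10 and 100, transcript types and gene sets.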

Additional observations from a re-analysis of the deposited data

How the results depend on the processing

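No paired analysis was possible because the table holds no values per library. For the same reason the planned test of IP against input, its replicate block and leaving out replicates were not run, and the complex with the highest median read total and the values per kilobase of coding length were not run because nuclear transcript lengths were not at hand. The readthrough setting leaves out every nuclear gene with a hyphen, long non-coding RNAs included.

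With a minimum of 10, the mitochondrial share of member counts was 49.5%, the leading transcript's median share 69.7% and the share not typed protein coding 18.4%. With a minimum of 100, member transcripts fell to 152 and the median per gene to 2. Those shares were then 51.3%, 83.7% and 16.2%, and the processed-transcript share was 11.2% (beside 3.53% in other genes). Members made 0.592% of the counts on all transcripts that met this minimum. On protein-coding transcripts alone the mitochondrial share was 54.5% and the leading share 85.3%. Members made 0.719% of the counts on all protein-coding transcripts, which is not a share of all counts. Without rRNA genes the mitochondrial share was 49.3%. Without readthrough genes 18.9% was not typed protein coding and 11.7% processed transcript. The leading share over genes with at least 2 transcripts was 67.3%. Alternatives chosen after seeing the data were NDUFV3 left out (9.94% processed transcript) and mitochondrial genes of at least 600 bases (5.23-fold from highest to lowest). With every window listed, 15 members held the NRF1 word.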

Other observations

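Genes that make and keep mitochondrial RNA were listed for 17 of 17, with read totals from 93.1 to 6123 and a median of 492. ELAC2, which cuts the 3′ ends of mitochondrial tRNAs, had a read total of 6123, POLRMT, the mitochondrial RNA polymerase, 3807, and LRPPRC, which stabilises mitochondrial mRNAs, 2307. The most abundant transcript was not typed protein coding in 1 of them, GRSF1, where it was a retained-intron transcript. Of the electron carriers and subunits that the gene-name rule leaves out, CYC1, the cytochrome c1 of complex III, had 4567 and CYCS, cytochrome c, 802.

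Of the mitochondrial tRNAs, 9 had a row, with mean normalized counts from 5.03 (MT-TQ) to 47.7 (MT-TM). These values are not per length and are not compared with those of the mRNAs.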
